A study of Mus musculus with 6 samples.

Results

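Proximal antigen receptor signalling was followed through 9 genes in mouse LSK cells. These are bone marrow cells without lineage markers that carry Sca-1 and Kit, a population made up of stem cells and early progenitors of the blood. The members are Lat, Lcp2, Zap70, Syk, Plcg1, Plcg2, Vav1, Cd3e and Cd5, chosen as the adaptors and enzymes that work next to the kinases Lck and Syk. They are 9 of 38926 genes in the deposited table, and 7 of them had a mean of at least 1 FPKM (reads scaled by gene length and library depth) and were tested. Wild-type C57BL/6 mice 8 to 12 weeks old received the vehicle DMSO or haloperidol, a dopamine receptor antagonist used against psychosis, by injection on each of 3 consecutive days. LSK cells were then sorted from crushed, collagenase-digested femur and tibia, with drug or vehicle kept in the sort, and lysed directly. Each group has 3 libraries. The labels name neither the dose nor whether a library held 1 mouse or several, so the p-values measure only the spread between these libraries, which may be technical. No batch is given in the labels, and one that coincided with the treatment cannot be told apart from it.

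In lymphocytes, an engaged antigen receptor is phosphorylated by a Src family kinase on paired tyrosines of its signalling chains, the immunoreceptor tyrosine-based activation motifs (ITAMs). Zap70 in T cells, or Syk in B cells and many myeloid cells, binds there and phosphorylates the scaffold proteins LAT and SLP-76 (encoded by Lcp2), which gather the exchange factor VAV1 and the phospholipase C gamma enzymes. The same adaptors and enzymes also serve Fc receptors of mast cells and collagen receptors of platelets, so they are not limited to cells with an antigen receptor.

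The libraries held between 8523556 and 8969076 reads assigned to genes. No pair of libraries agreed within sampling noise, with a chi-square per degree of freedom of 2.80 to 4.48 within a group and 12.1 to 17.0 between groups. The gate genes matched the label: Kit was at 87.8 ± 7.38 and 81.0 ± 9.78 FPKM and Ly6a (Sca-1) at 136 ± 10.2 and 138 ± 10.5 FPKM in DMSO and haloperidol (mean ± SD, n = 3 each). Of 10 LSK marker genes all were measured, 5 fell (Hlf, Meis1, Procr, Cd34 and Cd48) and Flt3 rose. The falls were 3 without DMSO replicate 2 or with no filter on low values, with Cd34 and Cd48 lost, and the rise of Flt3 was lost without any 1 library. Transcripts of erythroid marker genes summed to between 3596 and 5500 FPKM in all libraries, with 0 of 8 genes called (1 at an unadjusted p below 0.05, and 1 by limma-voom). In bulk RNA, fewer cells that express a gene and less RNA per cell cannot be told apart. Of all 11436 genes tested, 24.5% differed between the groups at an adjusted p below 0.05 (limma), 13.0% being lower with haloperidol and 11.5% higher.

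Among the 9 genes, the adaptor gene Lcp2, the exchange factor gene Vav1 and the surface receptor gene Cd5 fell with haloperidol, by 0.68, 0.40 and 0.64 on the log2(FPKM + 1) scale. None rose at the threshold in limma or limma-voom (1, Plcg2, at an unadjusted p below 0.05). Lat, Syk, Plcg1 and Plcg2 did not pass the test, and Zap70 and Cd3e were too low to be tested. With 3 of 7 tested genes called, and 1 of these (Cd5) past the filter only through its DMSO libraries, the share cannot be set against the 24.5% of all genes as a property of the group.

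**Figure D1:**
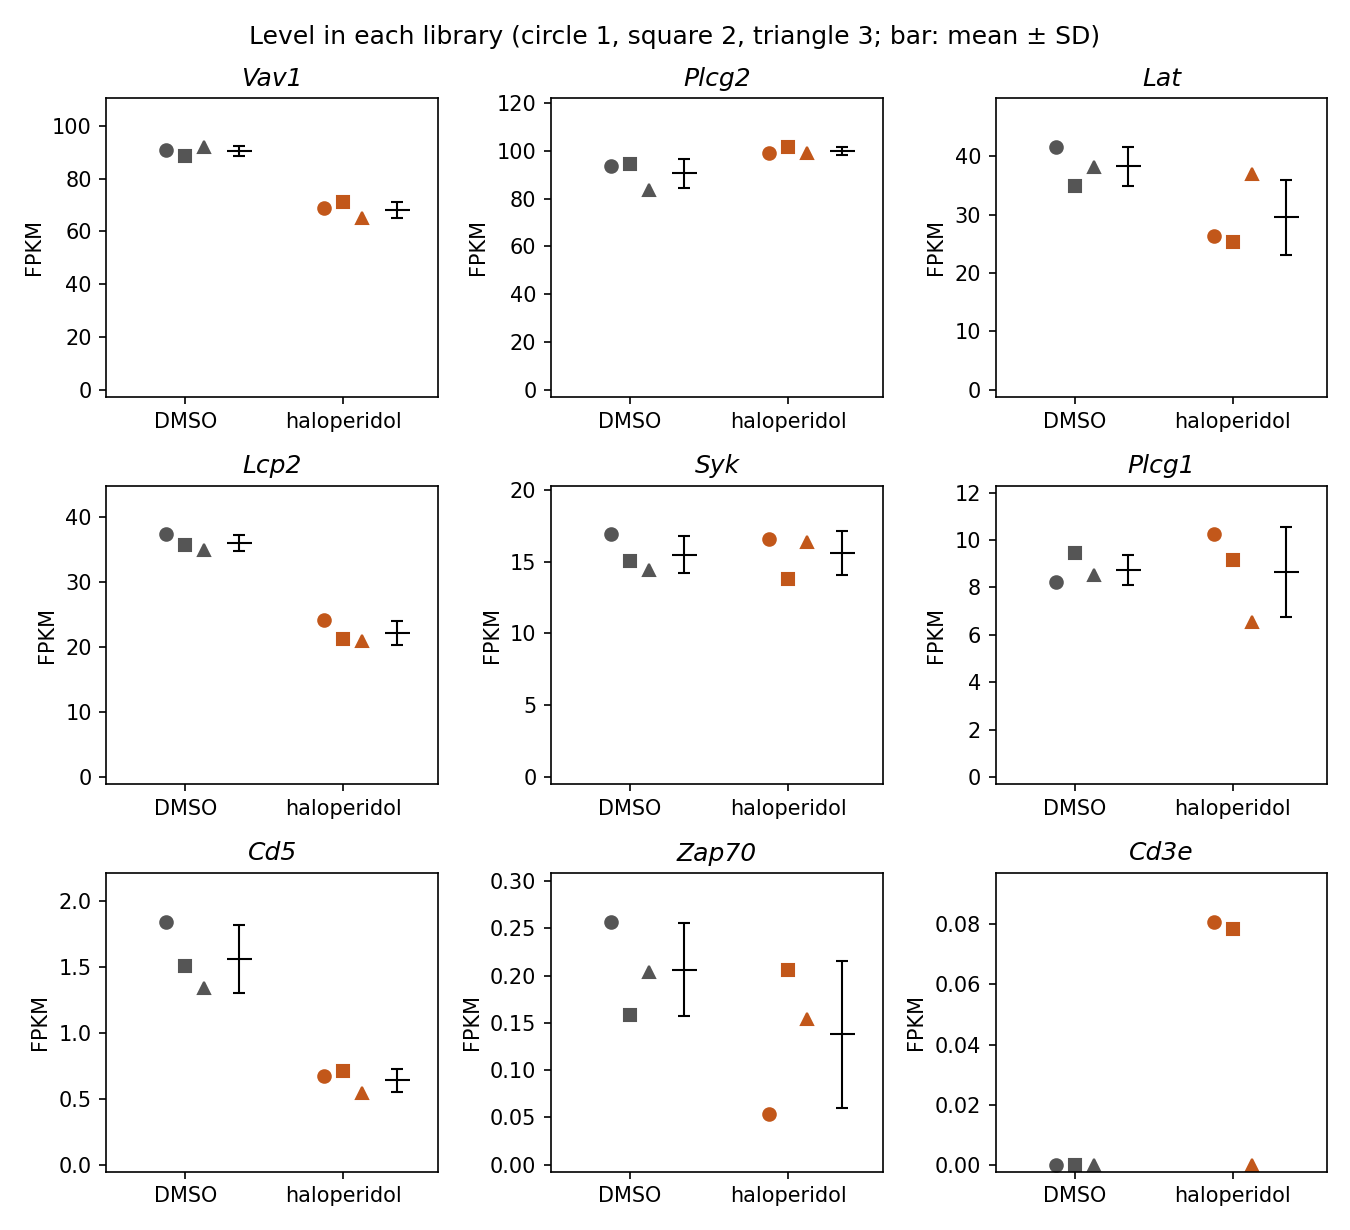
FPKM of each of the 9 genes (vertical axes, linear and scaled per gene) in the 3 DMSO libraries (grey) and the 3 haloperidol libraries (orange), with circles, squares and triangles for replicates 1, 2 and 3 and a black bar for mean ± SD, except for Cd3e. Vav1, Lcp2 and Cd5 are lower in all haloperidol libraries, Plcg2 is slightly higher in all of them, and for Lat haloperidol replicate 3 sits with the DMSO libraries. Of all genes tested, 22.1% lay lower in all haloperidol libraries than in any DMSO library, and 21.0% higher.

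Cd3e, which encodes the epsilon chain of the T cell receptor complex, was at or near 0 reads in every library. It lies on chromosome 9 from 44998740 to 45009627 (GENCODE M21 on GRCm38, the assembly behind mm10; all gene positions below are from it). The 3 DMSO libraries had 0 reads, and the haloperidol libraries had 1, 1 and 0 reads. A count of 0 allows up to 3 reads (a one-sided 95% bound), or 0.334 to 0.352 RPM at these depths, which covers counting error only, so no difference was detectable. Its exons share 135 bases with an antisense gene, and the library kits used keep no strand. Cd3d, with 0 to 4 reads per library, and Cd3g, with 0 or 1, were also close to the floor. Cd247, which encodes the zeta chain that natural killer cells use too, was low but present in every library, with 25 to 36 reads and 0.516 to 0.752 FPKM, and its groups overlapped.

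Cd5, a surface receptor that dampens antigen receptor signals in T cells and some B cells, lies on chromosome 19 from 10717116 to 10739002. It stood at 1.84, 1.50 and 1.34 FPKM in DMSO replicates 1, 2 and 3 and at 0.674, 0.707 and 0.543 FPKM in haloperidol replicates 1, 2 and 3. All haloperidol libraries were below all DMSO libraries, as for 22.1% of all genes tested, with a mean of 41.1% of DMSO. These levels rest on 25 to 34 reads per DMSO library and 10 to 13 per haloperidol library. The log2 fold change was -0.64 (SE 0.14, adjusted p = 0.0127, limma). At so low a level the pseudocount compresses the fold: with a pseudocount of 0.01 it was -1.27 (adjusted p = 0.0155, range over all alternatives 0.0052 to 0.0395).

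Of the kinases that bind phosphorylated ITAMs, Syk was expressed and Zap70 was close to the floor. Syk, on chromosome 13 from 52583173 to 52648792, was at 16.9, 15.1 and 14.4 FPKM in DMSO and 16.6, 13.8 and 16.4 FPKM in haloperidol. The groups overlapped almost fully, and the difference was 0.01 on the log2 scale (95% interval -0.19 to 0.21, adjusted p = 0.954, limma). The lower bound of this interval lies above the falls of Lcp2 and Vav1, and each library held 1150 to 1412 Syk reads. Zap70, on chromosome 1 from 36761798 to 36782818, had 5, 3 and 4 reads in DMSO and 1, 4 and 3 reads in haloperidol, at most 0.257 FPKM. No difference in Zap70 was detectable at this depth.

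The scaffold Lat, a transmembrane protein whose phosphorylated tyrosines recruit Grb2-family adaptors and phospholipase C gamma, lies on chromosome 7 from 126363824 to 126369570. It was at 41.6, 34.9 and 38.1 FPKM in DMSO and at 26.4, 25.2 and 37.0 FPKM in haloperidol replicates 1, 2 and 3. Haloperidol replicates 1 and 2 were below every DMSO library, while replicate 3 lay inside the DMSO range. Counting error does not cover that gap: the exact Poisson 95% intervals were 369 to 450 reads for replicate 3 against 249 to 316 and 246 to 313 reads for the others. Lat as a whole was at 38.2 ± 3.35 and 29.5 ± 6.47 FPKM (n = 3 each), with a log2 fold change of -0.38 (SE 0.13, 95% interval -0.68 to -0.07) that missed the threshold (adjusted p = 0.0717, limma). Without haloperidol replicate 3 it was -0.55 and passed (adjusted p = 0.0047), and the range over all alternatives was 0.0047 to 0.199.

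Haloperidol replicate 3 also held the highest values of some genes of cytotoxic and T cells, singled out after their values were seen. Gzmb (granzyme B) was at 14.4 FPKM there against 4.67 and 5.63 in the other haloperidol libraries, Prf1 (perforin) at 3.17 against 1.87 and 1.70, and the T cell receptor constant segment Trac at 5.71 against 2.25 and 1.91 FPKM. Trac rested on 8, 7 and 21 reads in haloperidol replicates 1, 2 and 3. In DMSO replicates 1, 2 and 3 it was at 3.26, 1.67 and 4.30 FPKM, on 12, 6 and 16 reads. Other genes of these cells were not high in haloperidol replicate 3. Klrd1, a receptor gene of natural killer cells, had its lowest value there, 0.263 FPKM on 3 reads, against 13 and 9 reads in the other haloperidol libraries, and Trbc1 was at 1.10 against 0.681 and 1.76 FPKM. Cd3e and Cd8a had 0 reads there, and Cd3d had 1. Fcer1g, the Fc receptor gamma chain, had a like order among these libraries, with 58.8, 50.5 and 69.5 FPKM in haloperidol and 67.2 to 76.4 FPKM in DMSO. The part of other cells in the value of Lat was not tested.

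Lcp2 encodes SLP-76, the cytosolic scaffold that joins VAV1 and phospholipase C gamma to LAT. The gene is on chromosome 11 from 34046920 to 34092295. Its level was 37.3, 35.7 and 34.8 FPKM in DMSO and 24.2, 21.3 and 20.9 FPKM in haloperidol. Every haloperidol library was thus below every DMSO library, as for 22.1% of all genes tested. The mean went from 36.0 ± 1.27 to 22.1 ± 1.81 FPKM (n = 3 each), which is 61.6% of DMSO, on 831 to 1485 reads per library. The log2 fold change was -0.68 (SE 0.07, adjusted p = 4.05e-04, limma). Lcp2 exons share 282 bases with the opposite-strand gene 4930469K13Rik, which was listed at a mean of 0.218 FPKM in DMSO and 0 in haloperidol.

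Vav1, the exchange factor that activates Rac GTPases in blood cells, lies on chromosome 17 from 57279100 to 57328031. It was at 91.0, 88.6 and 92.2 FPKM in DMSO and 68.8, 71.1 and 65.0 FPKM in haloperidol. The groups were far apart compared with their own spread: 90.6 ± 1.84 against 68.3 ± 3.04 FPKM (n = 3 each), or 75.4% of DMSO. The log2 fold change was -0.40 (SE 0.05, adjusted p = 0.00107, limma), from 2137 to 3067 reads per library. Its relatives did not pass the test, though each did in some alternatives. Their haloperidol libraries all lay above the DMSO libraries, as for 21.0% of all genes tested. Vav2 was at 1.45 ± 0.108 and 1.98 ± 0.230 FPKM, and Vav3 at 15.8 ± 1.23 and 18.4 ± 0.933 FPKM. The ratio of Vav1 to Vav3 was 5.41 to 6.24 in the DMSO libraries and 3.65 to 3.81 in the haloperidol libraries.

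The phospholipase C gamma enzymes release the messengers that open calcium stores and activate protein kinase C. Plcg2, the form prominent in B cells and myeloid cells, lies on chromosome 8 from 117498291 to 117635142 and was at 93.6, 94.5 and 83.6 FPKM in DMSO and 98.9, 101.7 and 99.0 FPKM in haloperidol. The haloperidol libraries were all above the DMSO libraries, by a small margin, and the log2 fold change of 0.14 (SE 0.06, 95% interval 0.01 to 0.27) missed the threshold at an adjusted p = 0.106 (limma). Without DMSO replicate 3, the lowest library, it was 0.086. Among all genes tested, 43.1% had groups that did not overlap, and 21.0% did so with haloperidol higher. Plcg1, the form of T cells and many other tissues, lies on chromosome 2 from 160731300 to 160775760. It was at 8.24, 9.45 and 8.54 FPKM in DMSO and 10.3, 9.18 and 6.53 FPKM in haloperidol. Haloperidol held both its highest and its lowest value, with replicate 3 lowest, and the difference was -0.03 (95% interval -0.35 to 0.29, adjusted p = 0.892, limma). Plcg1 shares 379 exon bases with the opposite-strand gene Zhx3, at 0.592 and 0.618 FPKM.

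**Figure D2:**
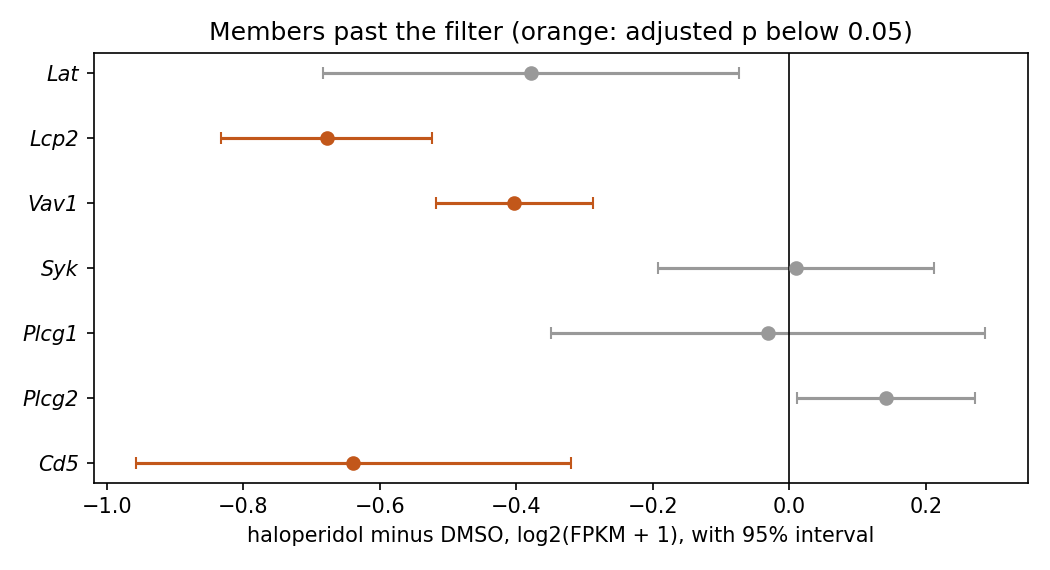
Difference between haloperidol and DMSO on the log2(FPKM + 1) scale (horizontal axis) for the 7 tested genes, each with its 95% interval from limma; orange marks an adjusted p below 0.05. Lcp2 (-0.68), Cd5 (-0.64) and Vav1 (-0.40) lie below 0, with narrow intervals for Lcp2 and Vav1. Cd5, Lat and Plcg1 have the wide intervals, and Syk and Plcg1 are centred near 0.

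Ordered by level in DMSO, Vav1 (90.6 ± 1.84) and Plcg2 (90.6 ± 6.02 FPKM) came first and could not be separated. Lat (38.2 ± 3.35) and Lcp2 (36.0 ± 1.27 FPKM) followed, with overlapping libraries, and then Syk at 15.5 ± 1.29, Plcg1 at 8.74 ± 0.633 and Cd5 at 1.56 ± 0.257 FPKM, each below the previous gene in all libraries. In haloperidol the leading pair came apart, with Plcg2 at 99.9 ± 1.61 and Vav1 at 68.3 ± 3.04 FPKM, and Lat lay above Lcp2 in all 3 libraries. Levels set side by side depend on the gene models the authors used. The lengths recovered from the FPKM steps equal the merged exons of the annotation for Lcp2 (4459 bases), Syk, Plcg1 and Vav1 and nearly so for Plcg2, but they are shorter for Lat (1239 against 2767 bases), Cd5 (2069 against 4928), Zap70 (2180 against 2992) and Cd3e (1436 against 4080). Differences between the groups for a gene are not touched by its length.

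Ratios within a library do not depend on how libraries were scaled. The ratio of Lcp2 to Plcg2 was 0.399, 0.378 and 0.417 in DMSO and 0.245, 0.209 and 0.211 in haloperidol. Vav1 to Plcg2 went from 0.938 to 1.10 in the DMSO libraries to 0.657 to 0.698 in the haloperidol libraries. Relative to the phospholipase they help to activate, both the adaptor and the exchange factor were lower in every haloperidol library. That separation follows from the values of the single genes and is no further evidence. Lcp2 and Vav1 were lower, and Plcg2 higher, in all haloperidol libraries. Lcp2 to Syk was 2.21 to 2.41 in DMSO and 1.28 to 1.54 in haloperidol. Lcp2 was lower relative to Vav1 as well, at 0.378 to 0.411 against 0.300 to 0.352. For these 4 ratios the groups did not overlap, which gives an exact two-sided permutation p = 0.1, the smallest that 3 against 3 libraries allow. The ratio of Lat to Lcp2 was 1.77 in haloperidol replicate 3, 1.09 and 1.19 in the other haloperidol libraries and 0.978 to 1.11 in DMSO, so the groups overlapped (exact permutation p = 0.3). In all, 11 ratios were computed, and those of Lcp2 to Blnk, Vav1 to Vav3 and Lck to Vav1 did not overlap either. As single genes, 43.1% of all genes tested had groups that did not overlap. A Benjamini-Hochberg adjusted p could not fall below 0.1 for any of the 11 ratios.

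**Figure D3:**
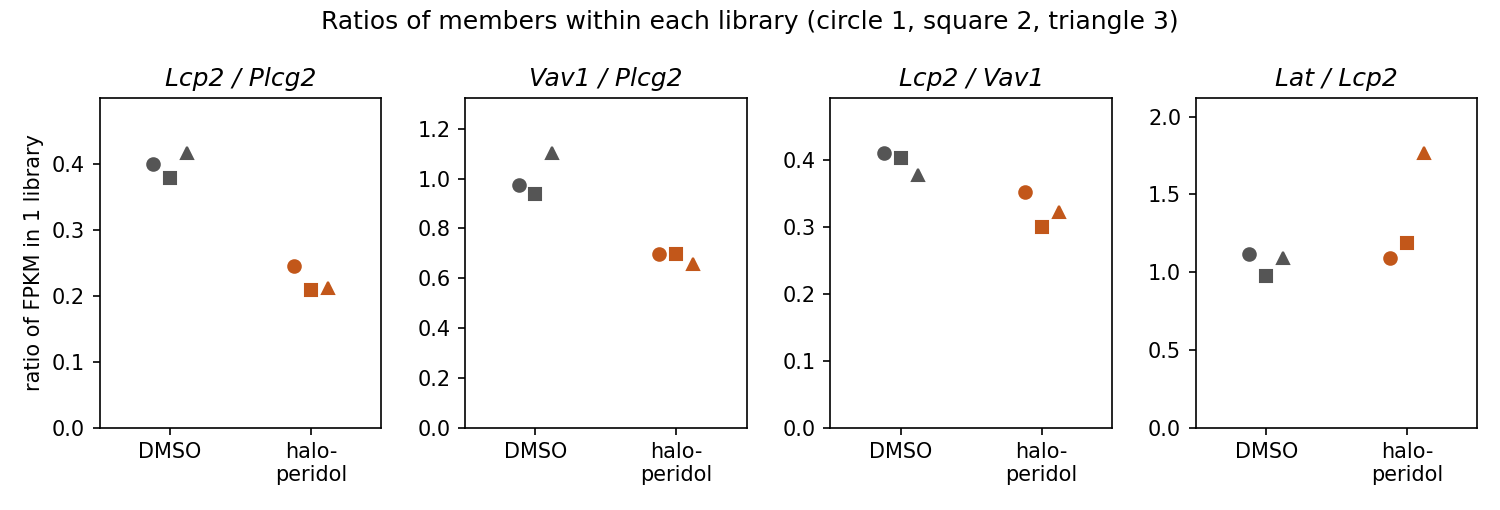
Ratio of the FPKM of 2 genes within each library (vertical axes, linear from 0), for DMSO (grey) and haloperidol (orange), with circles, squares and triangles for replicates 1, 2 and 3. Lcp2 and Vav1 relative to Plcg2, and Lcp2 relative to Vav1, do not overlap between the groups, while Lat to Lcp2 overlaps and has its highest value, 1.77, in haloperidol replicate 3.

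The 250 bases before the RefSeq start sites (GRCm38.p6) are shown for the 3 genes that passed the test as lower. Capitals mark GGAA, the core that ETS family factors such as PU.1 recognise, on either strand (TTCC), with overlapping matches merged.
Lcp2, chr11:34046678-34046927, plus strand: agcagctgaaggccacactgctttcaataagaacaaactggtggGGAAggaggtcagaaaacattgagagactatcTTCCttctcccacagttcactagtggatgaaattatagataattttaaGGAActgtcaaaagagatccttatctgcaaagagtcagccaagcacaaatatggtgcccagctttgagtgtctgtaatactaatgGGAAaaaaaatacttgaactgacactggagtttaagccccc
Vav1, chr17:57278850-57279099, plus strand: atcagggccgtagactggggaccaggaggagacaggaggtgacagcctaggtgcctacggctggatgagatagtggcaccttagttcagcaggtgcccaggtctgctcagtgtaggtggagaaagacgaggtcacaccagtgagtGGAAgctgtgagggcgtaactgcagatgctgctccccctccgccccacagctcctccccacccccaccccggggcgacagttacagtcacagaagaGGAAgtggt
Cd5, chr19:10738975-10739224, minus strand: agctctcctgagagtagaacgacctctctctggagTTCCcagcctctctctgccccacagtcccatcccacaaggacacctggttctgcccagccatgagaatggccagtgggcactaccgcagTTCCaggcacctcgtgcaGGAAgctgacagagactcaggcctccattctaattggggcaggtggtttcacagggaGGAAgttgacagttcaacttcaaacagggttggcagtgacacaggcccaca

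The core occurs 4 times in the Lcp2 window, 2 times in that of Vav1 and 4 times in that of Cd5. Of 32851 RefSeq windows of the same length, 93.4% hold at least 1 match, with a median of 3, so the matches do not set these promoters apart. Among the genes that did not pass, Lat has 4 matches, Plcg2 has 2 and Plcg1 has 0. GATA on either strand (TATC), the core bound by GATA factors, occurs 3 times before Lcp2, 1 time before Vav1 and 0 times before Cd5, and in 53.6% of all windows. Plcg2, which did not fall, has 3.

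By a rule of likeness, the root mean square difference of gene-centred log2(FPKM + 1) over the 6 libraries, each tested gene was matched to the nearest of 9937 named genes. The closest to Vav1 were Tsc22d2 (0.012) and Lztfl1 (0.027), and those closest to Lcp2 were Bcl11a (0.038), a transcription factor of lymphoid and stem cells, and Crlf3 (0.040). For Cd5 they were Lzts2 and the interferon regulatory factor gene Irf2. Lat, high in haloperidol replicate 3, was nearest to Rad52 (0.069) and Nfkb2 (0.073), the latter encoding a subunit of NF-kB. Plcg2 was nearest to Tcf3, which encodes the E2A transcription factors, and to Ctbp1. Syk was nearest to Tmbim6 and Sil1, and Plcg1 to Jup and Alyref2. These likenesses follow the groups as well as the single libraries and were not tested.

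The genes around the 9 were described through 6 lists of the pathway, 109 genes in all, of which 81 were tested. Among these, 21 fell and 6 rose, or 25.9% and 7.41%, beside 13.0% and 11.5% of all genes tested. Of the 21, Blnk and Cd79a were past the filter only through their DMSO libraries, as Cd5 was, and such a gene could hardly pass it and not be lower. Their median log2 fold change was -0.09, against 0.002 over all genes. The lists were not tested as sets.

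**Figure D4:**
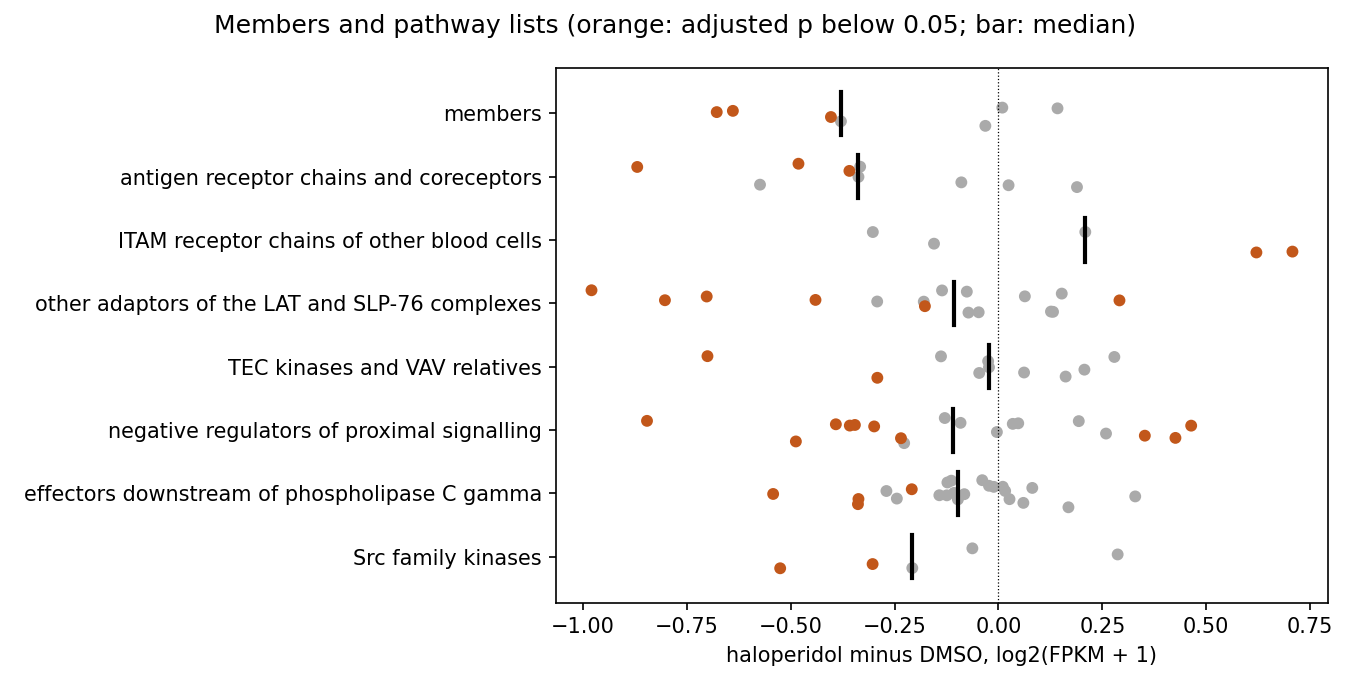
Difference between haloperidol and DMSO on the log2(FPKM + 1) scale (horizontal axis) for each tested gene of the 9, of the 6 pathway lists and of the Src family kinases; orange marks an adjusted p below 0.05 and black bars mark list medians. Falls and rises both occur among adaptors and negative regulators, with more falls, while the 4 called effectors of phospholipase C gamma all fell.

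Of 18 antigen receptor chains and coreceptors, 9 were tested and 3 fell, and none rose (0 also at an unadjusted p below 0.05 in limma and by limma-voom). Cd79b, whose protein carries the ITAM of immunoglobulin beta, fell from 32.2 ± 1.12 to 22.8 ± 1.24 FPKM, and Cd79a, which encodes its partner immunoglobulin alpha, fell from 2.22 ± 0.567 to 0.752 ± 0.216 FPKM. The tetraspanin gene Cd81, part of the B cell coreceptor and widely expressed, fell from 213 ± 8.86 to 166 ± 6.16 FPKM. Cd79b was the only ITAM chain of the antigen receptors above 3 FPKM in any library.

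Of 10 receptor and signalling chain genes of other blood cells, most of which couple to Syk through an ITAM, 5 were tested and 2 rose, and 0 fell in limma (1, Fcer1g, at an unadjusted p below 0.05 and by limma-voom). Hcst, which encodes the activating chain DAP10 and carries no ITAM itself, rose from 47.9 ± 2.43 to 78.8 ± 0.719 FPKM (log2 fold change 0.71, SE 0.05, adjusted p = 9.81e-05, limma). The Fc receptor gene Fcgr3 rose from 1.58 ± 0.324 to 2.97 ± 0.408 FPKM. The abundant ITAM chain genes Tyrobp (97.0 ± 6.36 and 112 ± 7.96 FPKM, adjusted p = 0.0558) and Fcer1g (73.2 ± 5.22 and 59.6 ± 9.52 FPKM, adjusted p = 0.073) did not pass. Tyrobp passed as higher in 7 of 20 alternatives (adjusted p from 0.033 to 0.166, limma), among them those without DMSO replicate 3 and without haloperidol replicate 2. Without haloperidol replicate 3, Fcer1g passed as lower (adjusted p = 0.0165, limma; range over its alternatives 0.0165 to 0.185).

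Of 22 other adaptors of the LAT and SLP-76 complexes, 16 were tested, 5 fell and 1 rose. Dapp1, a lipid-binding adaptor that acts after PI3K in B cells, was 186 ± 7.51 FPKM in DMSO and 94.0 ± 4.98 FPKM in haloperidol, or 50.5% (log2 fold change -0.98, SE 0.06, adjusted p = 3.82e-05, limma). Lax1, a transmembrane adaptor built like LAT, fell from 27.5 ± 2.26 to 16.6 ± 2.44 FPKM. Blnk, the counterpart of SLP-76 in B cells, fell from 1.62 ± 0.0934 to 0.506 ± 0.0867 FPKM. The ratio of Lcp2 to Blnk was 21.7 to 22.7 in DMSO and 35.4 to 49.9 in haloperidol. Themis2 fell from 5.61 ± 0.0609 to 3.88 ± 0.293 FPKM, and Grb2, the general adaptor to the Ras exchange factor SOS, fell from 56.5 ± 0.673 to 49.9 ± 2.06 FPKM. Pik3ap1, an adaptor for PI3K, rose from 36.5 ± 0.934 to 45.0 ± 2.96 FPKM. The most abundant adaptor beside Dapp1 was Skap2, at 143 ± 8.10 and 158 ± 2.88 FPKM (adjusted p = 0.0689). Lat2, the LAT relative of B cells and mast cells, was at 93.8 ± 0.734 and 90.7 ± 3.04 FPKM (adjusted p = 0.486, limma) and so stood above Lat in every library. Grap2, the adaptor that joins LAT to SLP-76 in T cells, lay between 0.142 and 0.391 FPKM.

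Of 13 TEC kinases and VAV relatives, 10 were tested and 2 fell, and 0 rose in limma (2, Vav2 and Vav3, at an unadjusted p below 0.05 and by limma-voom). In limma alternatives Vav3 passed as higher with quantile normalization (adjusted p = 0.0486) and with sample quality weights (0.0469). Vav2 did so with no trend in the prior variance (adjusted p = 0.0464, limma). Tec, a kinase that phosphorylates phospholipase C gamma, fell from 14.9 ± 0.987 to 8.78 ± 0.987 FPKM, and Btk, its B cell and myeloid relative, from 37.7 ± 1.68 to 30.6 ± 2.18 FPKM. Without DMSO replicate 2 the list had 1 fall, since the call of Btk was lost (adjusted p = 0.0578, limma). The GTPase genes Cdc42 and Rac2, the most abundant of this list, did not pass. Rac2, at 226 ± 7.31 and 205 ± 0.997 FPKM (adjusted p = 0.0513, limma), passed as lower in 5 of 20 alternatives, limma-voom among them, which makes 3 falls.

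All 18 negative regulators were tested, and 7 fell and 3 rose. Ptpn6, which encodes the phosphatase SHP-1, fell from 163 ± 8.51 to 116 ± 3.03 FPKM, and Dok2, a docking protein that restrains Ras signalling, from 37.7 ± 4.11 to 20.6 ± 2.77 FPKM. Cd72, an inhibitory coreceptor of B cells, fell from 25.9 ± 0.603 to 20.2 ± 0.118 FPKM. The adaptor gene Sla, which promotes receptor breakdown, rose from 10.4 ± 0.425 to 13.6 ± 0.618 FPKM, and the docking protein genes Dok1 and Dok3 rose from 3.71 ± 0.248 to 5.33 ± 0.404 and from 7.58 ± 0.789 to 10.9 ± 1.57 FPKM. Sla2 was at 47.0 ± 2.16 and 48.7 ± 4.25 FPKM. The 7 falls became 4 without any 1 library other than haloperidol replicate 1, and with no filter or a filter at 0.5 FPKM.

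Of 28 effectors downstream of phospholipase C gamma, 23 were tested and 4 fell, and none rose (0 also at an unadjusted p below 0.05 in limma and by limma-voom). The protein kinase C genes Prkcd and Prkcq fell from 38.3 ± 0.277 to 30.1 ± 0.973 and from 10.8 ± 0.339 to 7.15 ± 0.985 FPKM, and Nfatc1, a calcium-regulated transcription factor, from 18.1 ± 0.531 to 14.1 ± 0.877 FPKM. The calcium channel gene Orai1 fell from 44.9 ± 1.02 to 38.8 ± 2.46 FPKM, a call lost without any 1 library other than haloperidol replicate 3, with no filter on low values and with no trend in the prior variance (adjusted p up to 0.109). Bcl10 was at 71.4 ± 1.98 and 66.2 ± 2.22 FPKM (adjusted p = 0.149). Rasgrp1, the Ras exchange factor of T cells, had at most 0.0617 FPKM.

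Of the 8 Src family kinases, 5 were tested, and Lck and Fyn fell. Lck, the kinase that acts on CD3 chains and Zap70, was at 26.5, 24.9 and 26.0 FPKM in DMSO and 17.6, 18.5 and 16.9 FPKM in haloperidol (log2 fold change -0.53, adjusted p = 6.75e-04, limma). Its ratio to Lcp2 overlapped between groups, at 0.698 to 0.748 and 0.726 to 0.869. The ratio of Lck to Vav1 did not overlap, at 0.281 to 0.292 in DMSO and 0.256 to 0.260 in haloperidol. Fyn fell from 28.4 ± 1.08 to 22.8 ± 0.995 FPKM, and Lyn was at 26.2 ± 0.496 and 25.0 ± 1.21 FPKM (adjusted p = 0.453).

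Markers of other cells that use these genes moved in different directions beside Lcp2, Vav1 and Cd5. Of 14 T cell markers 7 were tested, 2 fell (Tcf7 and Ccr7, the latter lost without haloperidol replicate 1 at an adjusted p = 0.0512 in limma) and 7 stayed below 1 FPKM in every library; their sum was 14.3 to 18.4 FPKM in DMSO and 9.59 to 14.1 FPKM in haloperidol, and Cd8a had 0 reads throughout. Tcf7 (2.56 ± 0.423 and 0.963 ± 0.380 FPKM) and Ccr7 (1.82 ± 0.140 and 0.917 ± 0.192 FPKM) were past the filter only through their DMSO libraries. Of 10 B cell markers, the 3 tested fell (Ighm, Cd79b and Cd79a), and the sum went from 278 to 313 FPKM in DMSO down to 116 to 139 FPKM in haloperidol, most of it Ighm at 262 ± 18.7 and 102 ± 12.3 FPKM. Cd79a, like Tcf7 and Ccr7, was past the filter only through its DMSO libraries. Pax5, which encodes a defining transcription factor of B cells, was at most 0.0336 FPKM. Of 9 mast cell and basophil markers, the 3 tested rose (Cpa3, Mcpt8 and Hdc, the last lost without DMSO replicate 2 or haloperidol replicate 1 and with no filter), and the sum was 43.8 to 51.9 FPKM in DMSO and 77.3 to 97.6 FPKM in haloperidol. Of 11 monocyte and macrophage markers 6 were tested, Cd68, a lysosomal protein gene, rose from 16.2 ± 0.987 to 44.9 ± 3.90 FPKM (adjusted p = 3.21e-05, limma), and C1qc fell from 1.42 ± 0.288 to 0.687 ± 0.0931 FPKM, a call lost without any 1 library. C1qc, too, was past the filter only through its DMSO libraries. The sum of these 11 markers was 103 to 117 FPKM in DMSO and 133 to 166 FPKM in haloperidol. Of 11 megakaryocyte and platelet markers 8 were tested and Itga2b rose, with sums of 220 to 230 and 220 to 241 FPKM. Of 9 natural killer cell markers, 0 of 4 tested passed in limma (1 lower and 1 higher at an unadjusted p below 0.05 and by limma-voom), and Nkg7 was at 318 ± 11.4 and 296 ± 22.6 FPKM. The part of these cells in the falls of Lcp2, Vav1 and Cd5 was not tested.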

How the data were processed

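RNA from sorted LSK cells was sequenced in 3 DMSO and 3 haloperidol libraries. The authors deposited 1 table of FPKM with 1 column per library, and it holds 0 columns of other samples. Per the submitters' processing notes, the authors used DESeq2 1.18.1, HTSeq 0.6.1, TopHat2 2.1.1 and bcl2fastq 2.19.1.403 with the mm10 build. Which gene annotation was counted, and whether strand was used, is not given in the sources used here.

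Each gene's FPKM values were whole multiples of the worth of 1 read in 100.0% of the 20633 genes above 0, within 0.001 reads. Depths, read numbers and the gene lengths behind the FPKM were recovered from these steps. The library scale equalled median-of-ratios size factors.

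The 11436 genes with a mean of at least 1 FPKM entered a limma fit (limma 3.58.1, R 4.3.3) of log2(FPKM + 1). The prior variance followed a trend with level, tests were two-sided, and Benjamini-Hochberg adjustment covered all genes tested, at 0.05. The script was tested on simulated data. Alternatives covered the pseudocount, the filter, the scaling, the prior variance, sample weights, the replicate number as a block and each library left out. Scaling by read totals and limma-voom on recovered reads were added after seeing the data. Members and lists were chosen with earlier results of these data known. All members are named. Of each pathway list the text names up to 4 genes with the smallest p past the threshold and the 2 most abundant, and others are named where a count of 5 or fewer falls outside that rule. Ratios were compared with exact permutation tests in scipy 1.17.1. Some list genes are not reported here by name.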

Additional observations from a re-analysis of the deposited data

How the results depend on the processing

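Lcp2, Vav1 and Cd5 kept their direction and their call in all alternatives that gave a value (20, 20 and 19). Cd5 was past the main filter, at a mean of 1 FPKM, only through its DMSO libraries. The filter at a mean of 5 FPKM left Cd5 untested. Lat, not called in the report, passed with that filter (-0.38), with rescaling to a common sum (-0.40), with sample quality weights (-0.40) and with limma-voom on recovered reads (-0.39), the last added after seeing the data. With each library left out Lat ranged from -0.55 to -0.28. Syk, at 0.01, was -0.011 with rescaling to a common sum and between -0.036 and 0.089 with each library left out, and Plcg1 between -0.15 and 0.14, with no call. Of all genes, 2807 were called, 1821 to 2148 with each library left out. The 1320 higher genes were 848 with no filter on low values, 815 without DMSO replicate 2 and 869 without haloperidol replicate 1. The labels do not say whether replicate numbers pair the libraries. Same-numbered libraries deviated with r of 0.0095, 0.055 and 0.0195, and not every library correlated best with its own number. With 3 libraries per group these values cannot settle whether they were paired. With the replicate block 2552 genes passed, Lcp2, Vav1 and Cd5 among them, and Fcer1g passed as lower. Depth limits Zap70, Cd3e and, at 10 to 34 reads per library, Cd5.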
